A study of Mus musculus with 97 samples.

Results

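Oxidative phosphorylation genes were followed in RNA from the whole colon of mice given antibiotics. Members were chosen by gene name and level, with earlier results of these data known. They were subunits of respiratory complexes I to IV and of the ATP synthase (complex V). Taken were those encoded by the mitochondrial genome, and those encoded in the nucleus under the names Nduf, Sdh, Uqcr, Cox and Atp5. Each had a TPM (transcript abundance scaled to a fixed total per library) of 1 or more in at least 4 libraries. Of 20457 genes in the table, 96 were members, 13 of the mitochondrial genome and 83 of the nucleus. The names matched 97 genes, and the only 1 that missed the level was Cox6a2, whose highest TPM was 0.363. The members nearest the level were Ndufa4l2, at 1 TPM or more in 46 libraries, a second low identifier of Atp5o, in 52, and Cox8b, in 70. The name pattern leaves out some true subunits, such as Cox4i1, Cyc1 and Ndufab1. Placement in complexes follows the names.

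Wild-type C57BL6/J mice aged 8 to 12 weeks were given neomycin, vancomycin, ampicillin or metronidazole, all 4 as a mix, or phosphate buffered saline (PBS) as the control. The routes were oral gavage (PO), intraperitoneal injection (IP) and intravenous injection (IV), and a dose was 2.5 mg of antibiotic in 100 µl PBS, or 100 µl PBS alone, 2 times a day for 3 days and again on day 4, and tissue was taken 4 hours later. The 97 libraries form 18 groups of 4 to 6, and since the labels do not state whether each replicate is its own mouse, the tests here refer to the variation among the libraries, some of which may be technical. Sequencing depth is unknown, as TPM does not retain it.

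Oxidative phosphorylation passes electrons from NADH and succinate along complexes I to IV to oxygen and uses the proton gradient they build to make ATP at complex V. Its subunits come from separate genomes: the mitochondrial DNA encodes core subunits of complexes I, III, IV and V, while the nucleus encodes all of complex II and most other subunits. In the colon, surface colonocytes are known for burning butyrate made by gut bacteria, a process that depends on this pathway.

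Many nuclear members share promoter sequences for nuclear respiratory factor 1 (NRF1), ETS family factors such as GABPA, and YY1, which are known regulators of such genes. The promoters of 4 members that results below turn on are shown, from RefSeq on GRCm38.p6, 5′ to 3′ on the gene's strand, from 250 bases before to 50 after the annotated start. Capitals mark the NRF1 palindrome on either strand, and the promoter of Cox7a1 holds none.
Ndufa6 (chr15:82354242-82354541, - strand): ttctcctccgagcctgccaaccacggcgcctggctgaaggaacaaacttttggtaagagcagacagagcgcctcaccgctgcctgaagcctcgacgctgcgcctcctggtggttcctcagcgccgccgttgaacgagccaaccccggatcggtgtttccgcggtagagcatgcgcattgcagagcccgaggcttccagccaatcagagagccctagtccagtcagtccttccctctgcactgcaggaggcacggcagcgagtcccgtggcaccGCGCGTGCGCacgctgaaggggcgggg
Ndufb4 (chr16:37654319-37654618, - strand): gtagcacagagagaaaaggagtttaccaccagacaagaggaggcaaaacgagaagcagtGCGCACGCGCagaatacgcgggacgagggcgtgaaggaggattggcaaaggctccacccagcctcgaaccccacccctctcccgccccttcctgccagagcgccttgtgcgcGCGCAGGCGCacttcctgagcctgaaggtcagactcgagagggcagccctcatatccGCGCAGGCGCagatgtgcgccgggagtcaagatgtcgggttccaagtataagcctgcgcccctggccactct
Sdha (chr13:74350191-74350490, - strand): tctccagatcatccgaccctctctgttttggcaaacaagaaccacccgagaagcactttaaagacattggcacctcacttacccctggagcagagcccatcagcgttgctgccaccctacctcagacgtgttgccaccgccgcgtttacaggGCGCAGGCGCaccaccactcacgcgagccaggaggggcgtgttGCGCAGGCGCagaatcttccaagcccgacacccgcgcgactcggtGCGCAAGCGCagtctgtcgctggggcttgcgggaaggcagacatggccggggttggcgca
Cox7a1 (chr7:30183921-30184220, + strand): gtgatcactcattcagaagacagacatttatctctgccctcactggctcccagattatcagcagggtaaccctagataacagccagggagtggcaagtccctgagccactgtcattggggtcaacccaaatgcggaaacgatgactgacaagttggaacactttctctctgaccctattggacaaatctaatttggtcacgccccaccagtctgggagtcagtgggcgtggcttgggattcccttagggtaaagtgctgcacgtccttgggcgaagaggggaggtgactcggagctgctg
Of 82 nuclear symbols looked up, 68 had a promoter in RefSeq. The NRF1 palindrome stood in 23.5% of these 68, against 4.78% of 27025 promoters of the same length. The ETS core with its flank, CCGGAAG, stood in 23.5% against 9.12%, and the YY1 core AAGATGGCG in 8.8% against 1.49%. All motifs were searched on both strands. A match is a run of letters, not a measured binding site.

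Mitochondrial genes held the 5 highest mean TPM values of the table. By mean TPM over 97 libraries, mt-Co1, mt-Co2 and mt-Co3, the catalytic core of cytochrome c oxidase, ranked 1 to 3, followed by mt-Cytb of complex III and mt-Atp6 of complex V at 4 and 5. The mean TPM of mt-Co1 was 35169, and the lowest of the 13 was mt-Nd4l of complex I, at 523.0. The median of the 13 mean TPM values was 5760, against 155.7 for the 83 nuclear members. The highest nuclear members were Atp5b, the catalytic beta subunit of the ATP synthase, at 1078, and Atp5a1, its alpha subunit, at 953.5, ranked 70 and 77 among all genes, above mt-Nd3 and mt-Nd4l at 138 and 179.

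Within every complex that draws on both genomes, the mitochondrial genes carried the larger summed TPM. In complex I, 7 mitochondrial genes summed to 20001 TPM and 39 nuclear genes to 4453. In complex IV, 3 mitochondrial genes summed to 59788 TPM and 14 nuclear genes to 3208. In complex V, 2 mitochondrial genes summed to 10347 TPM and 18 nuclear genes to 5409. Complex II, all nuclear, summed to 828.6 TPM, of which Sdha, its flavoprotein subunit, gave 324.7.

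Together the 13 mitochondrial genes took between 3.52% and 27.5% of all TPM in a library, with a median of 8.35%. Among PBS libraries the share was 13.1% ± 8.06 (SD, n = 4) by IP, 13.97% ± 6.61 (n = 5) by IV and 10.5% ± 3.85 (n = 6) by PO. After neomycin it was 6.43% ± 3.00 (n = 6), 6.85% ± 2.34 (n = 5) and 7.05% ± 2.70 (n = 6) by the same routes. These were the lowest 3 of the 18 group means, and each neomycin group still overlapped its own PBS group. The mix by PO had the smallest spread, at 7.76% ± 0.971 (n = 6).

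**Figure D1:**
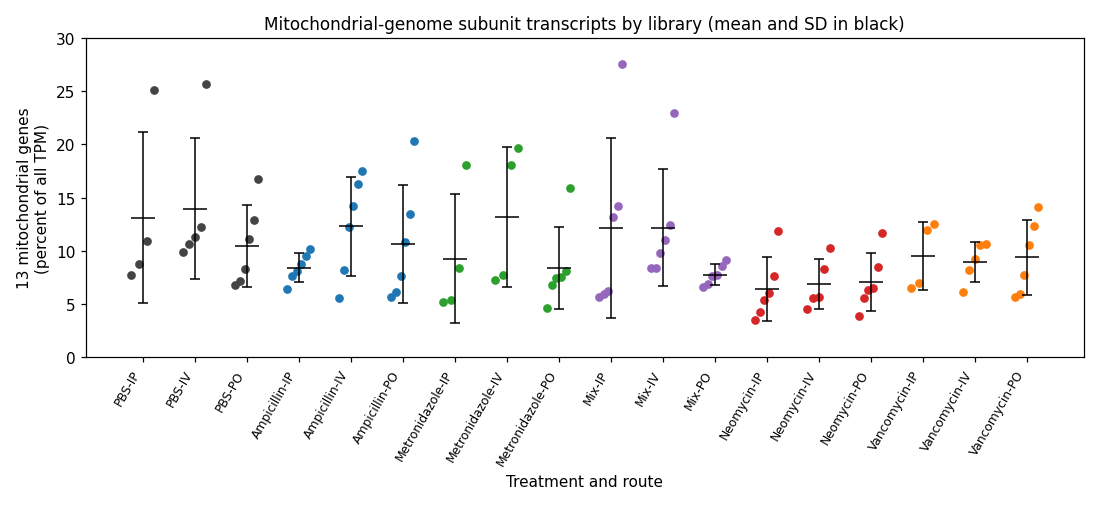
Percent of all TPM in the 13 mitochondrial genes (y axis) for each library (points) in the 18 groups (x axis), with the mean and SD in black. The 3 neomycin groups have the lowest means, 6.43% to 7.05%, and single PBS libraries by IP and IV reach 25.1% and 25.7%.

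The mitochondrial and the nuclear members did not rise and fall together. Over 97 libraries, the mean log2(TPM + 1) of the 13 and of the 83 had a Pearson r of -0.525 and a Spearman rho of -0.507, and r was -0.603 within groups. TPM sums to a fixed total, so a higher mitochondrial share lowers other genes by construction. With nuclear TPM rescaled to a total without mitochondrial genes, r was -0.382, and -0.478 within groups. These values describe libraries that share tissue makeup and scaling.

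Within groups, each of the 13 mitochondrial genes followed the mean of the other 12. The r ran from 0.87 for mt-Nd6, on the other strand from the 12 remaining genes, to 0.984 for mt-Nd1. The nuclear members had a median r within groups of 0.939 with the mean of the other nuclear members. The exceptions below 0 were Ndufa4l2 (-0.634), Cox6b2 (-0.582) and Cox8b (-0.47).

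The nuclear members moved with the epithelial markers of the tissue. Their mean had r 0.844 with the mean of 10 goblet cell markers, 0.735 with 11 surface colonocyte markers and -0.733 with 16 smooth muscle markers. The mitochondrial mean had r -0.528, -0.599 and 0.345 with the same lists. Summed marker TPM ran from 4522 to 93035 for smooth muscle and from 390.1 to 28885 for goblet cells, so the libraries held very different amounts of each layer, and in bulk RNA fewer cells of a type and less RNA per cell cannot be told apart.

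**Figure D2:**
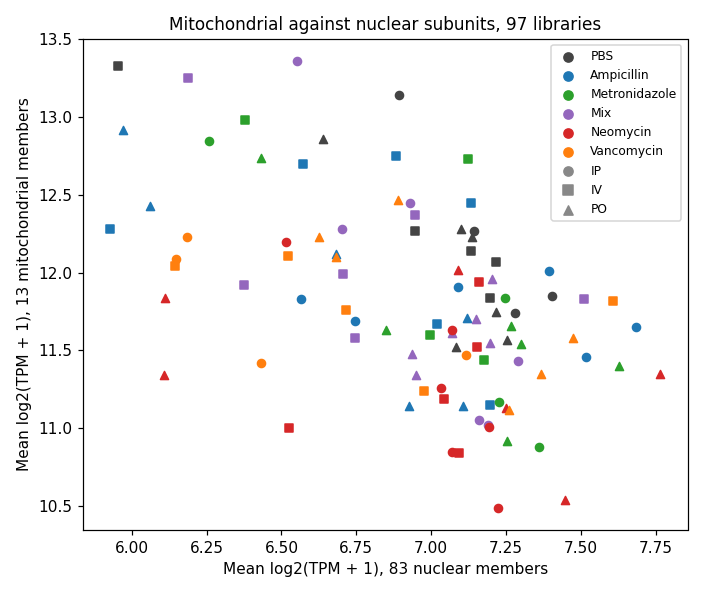
Mean log2(TPM + 1) of the 83 nuclear members (x axis) and of the 13 mitochondrial members (y axis) in 97 libraries, coloured by treatment, with a symbol for each route. Libraries with high nuclear values tend to have low mitochondrial values (Pearson r -0.525).

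The difference between the mitochondrial and nuclear means, on the log2 scale, averaged 4.88 ± 0.915 (SD, n = 97). Its group means ran from 4.22 ± 0.840 (n = 6) in Neomycin-IP to 5.44 ± 1.11 (n = 5) in PBS-IV, and no antibiotic group was free of overlap with its PBS group. Averaged over the 3 routes, it was 4.31 after neomycin and 5.16 after PBS, a difference of -0.85. That difference was -0.85 in complex I, -0.99 in complex III, -0.67 in complex IV and -0.95 in complex V.

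The neomycin groups, compared with PBS as the mean of the 3 routes, had lower levels of all 13 mitochondrial genes and no called change in any of the 83 nuclear members. Genes were tested with limma over all 17083 tested genes and called at a Benjamini-Hochberg adjusted p under 0.05; 0.258% of all tested genes were called lower and 2.08% higher. The median log2 change of the 13 was -0.86, that of the 83 was -0.05 and that of all genes 0.04. The 13 were among 44 genes called lower, and 356 genes were called higher.

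The largest change was in mt-Nd4l, a core subunit of complex I. Its TPM ran from 115.8 to 578.4 with a median of 305.3 in 17 neomycin libraries, and from 327.0 to 1664 with a median of 638.4 in 15 PBS libraries. The ranges overlapped, with the lowest values in neomycin libraries. The log2 change was -1.22 ± 0.24 (SE), with a limma adjusted p = 0.000521.

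For mt-Atp8, a small subunit of the ATP synthase, TPM ran from 566.7 to 1890 with a median of 1025 after neomycin and from 1146 to 4852 with a median of 2126 after PBS. Its log2 change was -1.11 ± 0.22 (SE), with a limma adjusted p = 0.000288, the smallest of the 13. For mt-Cytb, the cytochrome b of complex III, the medians were 4915 and 10222 TPM and the log2 change -1.02 ± 0.24. Both genes overlapped between treatments.

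The smallest change was in mt-Co2, a core subunit of complex IV, with medians of 8789 and 14517 TPM and a log2 change of -0.71 ± 0.21 (SE, limma adjusted p = 0.0457). The log2 changes of the other mitochondrial members were -1.08 for mt-Nd5, -0.94 for mt-Nd4, -0.87 for mt-Nd2, -0.86 for mt-Atp6, -0.84 for mt-Nd1, -0.83 for mt-Co1, -0.79 for mt-Co3, -0.76 for mt-Nd3 and -0.72 for mt-Nd6. Genes of complexes I, III, IV and V were thus all among those called, and mt-Nd6, transcribed from the other strand, was called too; whether the quantification used strand is not given in the sources used here.

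**Figure D3:**
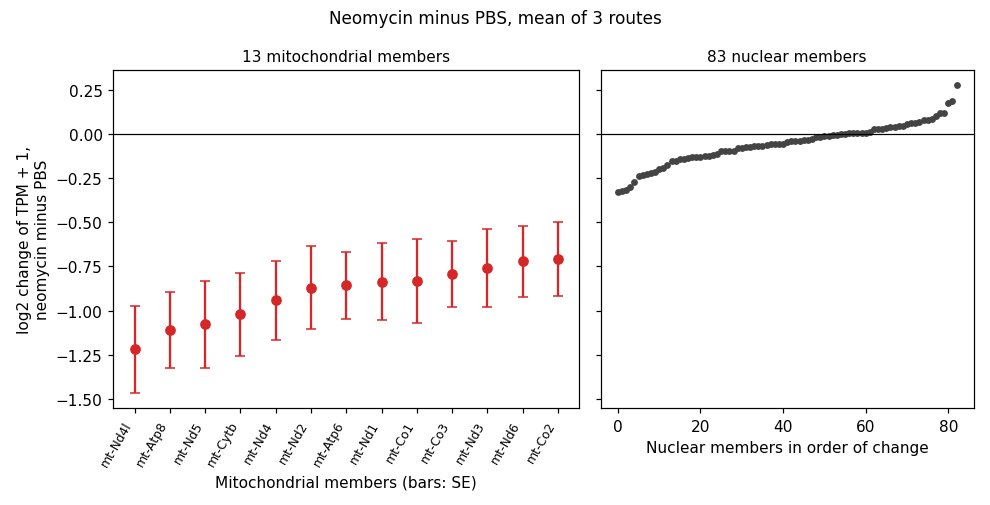
log2 change of TPM + 1, neomycin minus PBS as the mean of 3 routes (y axis), for the 13 mitochondrial members with SE bars (left) and the 83 nuclear members in order of change (right). The mitochondrial values lie between -1.22 and -0.71, below all of the nuclear values.

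The call rests in part on 2 PBS libraries with a high mitochondrial share, PBS-IP replicate 3 and PBS-IV replicate 4. Without the first, 7 of the 13 were called lower, without the second 8, and without both 3, with a median log2 change of -0.70. It was 8 without the 12 libraries whose columns were appended after the sorted block of the table, 2 of PBS-IP and 2 of PBS-IV among them. All 13 changes were below 0 in each of the 43 alternative fits run for them, but most of these fits only leave out 1 library and are not independent. Calls varied by gene: mt-Atp8, mt-Atp6 and mt-Nd4l were called in all 43. The fewest calls were for mt-Co2 (20), mt-Nd3 (23) and mt-Co1 (27), and the change of mt-Co1 was -0.15 at its smallest. Markers of muscle and goblet cells did not pass the test in this comparison: 0 of 16 and 0 of 10 were called, with median changes of -0.08 and -0.19. With both as covariates all 13 mitochondrial genes were still called. That fit leaves out the surface colonocyte markers, whose r with the mitochondrial mean was larger in size (-0.599) than that of goblet or muscle markers. A fit with the colonocyte score added was run as well, but its mitochondrial count in this comparison is not given here. Markers that are not called can still have shifted, and whether tissue makeup gave the neomycin change was not tested.

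By single route no mitochondrial member was called after neomycin, where 0.0293% of all genes were called lower by IP and 0% by IV and by PO. The median change of the 13 was -0.998 by IP, -1.004 by IV and -0.68 by PO, with all 13 below 0 by each route. An unadjusted p under 0.05 was reached by 10, 13 and 4 of them, against 5.81%, 7.24% and 5.35% of all genes. A limma F test for a difference between the routes called no member, against 0.0878% of all genes.

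A comparison added after the data were seen set neomycin against the other 4 antibiotic treatments and used no PBS library. The mix, 1 of those 4, itself contains neomycin. Against PBS over the 3 routes, the mix had 0 of the 13 mitochondrial genes called, with a median change of -0.30. In the added comparison, 7 of the 13 mitochondrial genes were called lower after neomycin, against 0.96% of all genes, and 0 of 83 nuclear members. The 7 were mt-Cytb, mt-Nd3, mt-Co3, mt-Nd4, mt-Atp6, mt-Nd1 and mt-Nd4l, with log2 changes from -0.70 for mt-Cytb to -0.52 for mt-Atp6. The median of the 13 was -0.56, and smooth muscle markers had a median of -0.70 in the same comparison with 0 of 16 called. With muscle and goblet scores as covariates, 0 of the 13 were called and their median was -0.35. Nuclear members were called there under some of the alternatives. With these covariates 7 were lower, with the colonocyte score added 25 were lower, and with array weights 29 were higher and 3 lower. The share of all genes called under these alternatives is not given here, and 0.96% belongs to the main fit. Without the 12 appended libraries a single Vancomycin-IP library is left among the other treatments, so no count is given for that fit.

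Genes that make or handle mitochondrial transcripts were mostly not called after neomycin, and neither were most other genes. Of all tested genes, 2.08% were called higher and 0.258% lower. In lists this short, the counts below do not set the lists apart from all genes. Of 31 genes for replication, transcription and translation of mitochondrial DNA, 1 was called higher and 0 lower: Taco1, a translational activator of COX1, with a log2 change of 0.36 ± 0.09 (SE, limma adjusted p = 0.011). Of 49 assembly factors, 10 regulators of mitochondrial biogenesis and 16 genes of the citric acid cycle, 0 were called. Of 15 glycolysis genes, Pfkp, a phosphofructokinase, was called higher, at 0.34 ± 0.08.

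Nuclear sequences that copy mitochondrial genes can share their reads. Gm10925 matched mt-Atp6 over 678 bases at 100.0%, Gm28661 matched mt-Co2 at 100.0%, Gm28438 matched mt-Nd3 at 99.7%, and Gm29216 matched part of mt-Co1 over 483 bases at 99.8%. Gm13340, which matched mt-Co1 over 1545 bases at 97.6%, was counted among the copies of mt-Co1. The copies made up a median of 13.6% of the sum with mt-Co1, from 0.0804% to 29.8% by library. For mt-Nd3 the median was 22.4%, from 2.26% to 60.4%, and for mt-Atp6 it was 1.1%, from 0.249% to 23.8%. The share of reads given to the copies thus varied widely between libraries. With their values added, the changes after neomycin were -0.78 for mt-Co1, -0.90 for mt-Atp6, -0.94 for mt-Nd3 and -0.71 for mt-Co2, and all 13 mitochondrial genes were called.

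Across the 15 comparisons of an antibiotic group with PBS of its route, the median change of the 13 mitochondrial genes was below 0 in each, from -0.13 for Ampicillin-PO to -1.004 for Neomycin-IV. The 3 PBS groups are shared by these comparisons, so the medians are not independent of each other. Outside Vancomycin-IP, no member was called in any of the 15. All genes called in the comparisons other than those of neomycin and Vancomycin-IP were 0.492%, 0.082% and 0.0702% for ampicillin by IP, IV and PO, 0% for metronidazole by each route, 0.275%, 0% and 0.252% for the mix, and 0.258% and 0.176% for vancomycin by IV and PO. An F test over the 18 groups called 0 members, against 13.1% of all genes, and 7 members had an unadjusted p under 0.05, against 34.7%. The smallest adjusted p was that of Ndufa4 (limma F test, 0.0528), with group means from 110.8 TPM in Ampicillin-IV to 185.9 TPM in Vancomycin-PO.

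**Figure D4:**
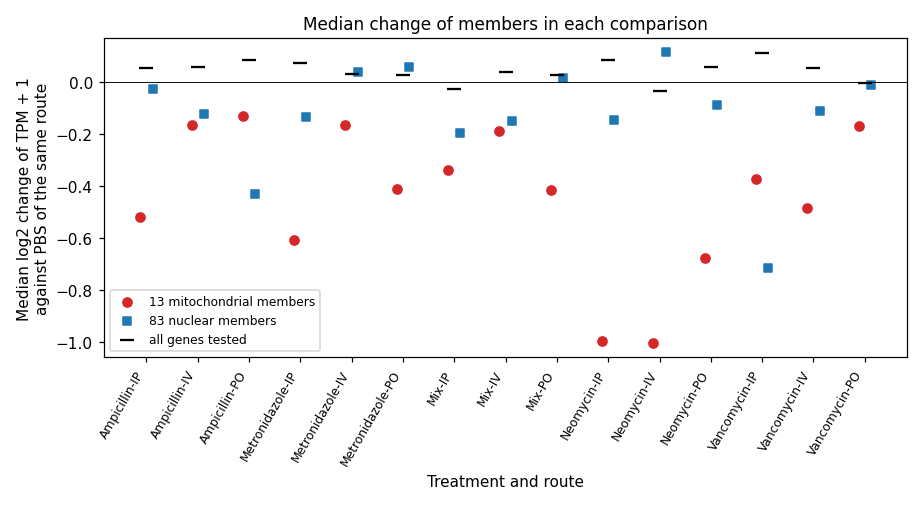
Median log2 change of TPM + 1 against PBS of the same route (y axis) for the 13 mitochondrial members, the 83 nuclear members and all tested genes in 15 comparisons (x axis). The mitochondrial median is lowest in the neomycin groups, and the nuclear median is lowest in Vancomycin-IP (-0.72).

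In Vancomycin-IP, set against PBS-IP, the calls lay among the nuclear members: 18 nuclear members were called lower, 1 was called higher and 0 of 13 mitochondrial genes were called. Of all genes, 3.08% were called lower and 16% higher. The median change was -0.72 for the 83 nuclear members, -0.38 for the 13 mitochondrial genes and 0.11 for all genes.

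The largest fall was in Cox7a1, the muscle and heart isoform of a complex IV subunit. Its TPM was 65.8, 54.4, 51.3 and 86.9 in the PBS-IP libraries and 12.9, 4.30, 9.03 and 37.8 in the Vancomycin-IP libraries. The groups did not overlap. The log2 change was -2.30 ± 0.73 (SE, limma adjusted p = 0.0253).

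For Ndufa6, an accessory subunit of complex I whose promoter is shown above, TPM was 355.0, 391.8, 226.3 and 433.6 after PBS and 95.7, 61.2, 91.9 and 250.0 after vancomycin. The highest vancomycin library, replicate 4, lay above the lowest PBS library. The log2 change was -1.66 ± 0.51 (SE, limma adjusted p = 0.0236).

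For Cox7b, a complex IV subunit, TPM was 281.7, 279.6, 234.3 and 372.5 after PBS and 115.1, 80.3, 89.0 and 192.0 after vancomycin, with no overlap. Its log2 change was -1.35 ± 0.42 (SE). Cox6c2, a copy of the complex IV subunit Cox6c with 96.8% identity over 126 bases, and Uqcrfs1, the Rieske iron-sulfur protein of complex III, had log2 changes of -1.26 and -1.20. Ndufb4 and Ndufb4c, called lower at -0.98 and -1.05, were identical over 390 bases, so reads cannot be assigned between them with certainty.

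The other members called lower were Uqcrb, Atp5mpl, Cox6c, Cox8a, Ndufa1, Ndufb1, Cox7c, Atp5j, Ndufc1, Ndufs1 and Ndufs5, with log2 changes from -1.18 for Uqcrb to -0.54 for Ndufs5. Ndufa4l2, a low-level relative of Ndufa4, was called higher: its TPM was 0.822, 0.522, 0.521 and 0.924 after PBS and 1.56, 3.16, 2.37 and 1.18 after vancomycin. Sdha, which was not called in this comparison, was 271.6 ± 45.6 TPM (SD, n = 4) after PBS and 254.5 ± 44.5 (n = 4) after vancomycin.

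**Figure D5:**
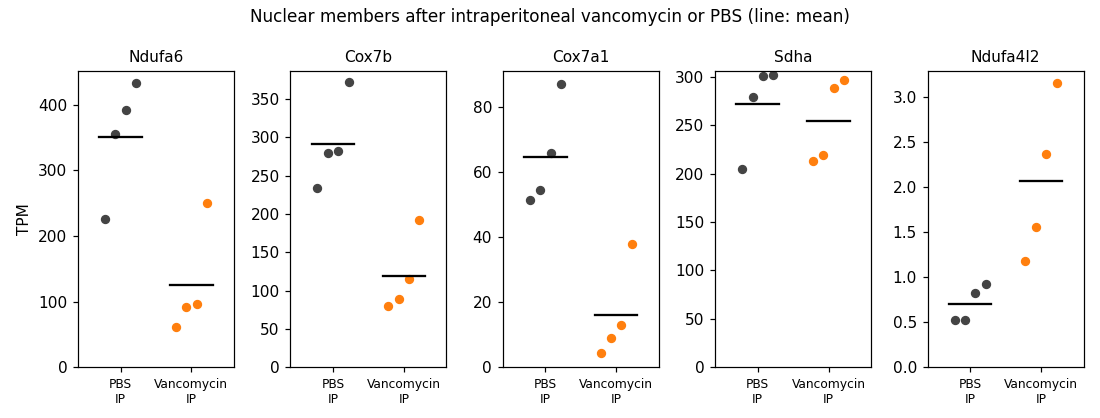
TPM (y axis, from 0) of 5 nuclear members in the 4 PBS-IP and 4 Vancomycin-IP libraries, with the mean as a line. Cox7b and Cox7a1 do not overlap between groups, Sdha does, and Ndufa4l2 is higher in each vancomycin library.

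Tissue markers moved with this result. Of 16 smooth muscle markers 13 were called higher, and their summed TPM was 50316 to 85185 in Vancomycin-IP against 9900 to 18365 in PBS-IP. Of 10 goblet markers 4 were called lower (Tff3, Clca1, Zg16 and Atoh1), and their summed TPM was 547.4 to 6255 against 7968 to 24549. With muscle and goblet scores as covariates 0 nuclear members were called. The fit without the 12 appended libraries (3 from Vancomycin-IP and 2 from PBS-IP) leaves a single Vancomycin-IP library, so no count is given for it. Without covariates, the count of nuclear members called was 0 when any 1 of PBS-IP replicate 1 and Vancomycin-IP replicates 1, 2 and 3 was left out. It was 4 and 2 without PBS-IP replicates 2 and 4, and 47 without Vancomycin-IP replicate 4.

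The calls in the related gene lists in Vancomycin-IP stand beside 3.08% of all genes called lower and 16% called higher. Of 49 assembly factors 4 were called lower, Cox11, Cox20, Coa6 and Acad9, with log2 changes of -0.63, -0.74, -0.88 and -0.63. Of 16 citric acid cycle genes Fh1 (fumarate hydratase) and Idh3b (a subunit of isocitrate dehydrogenase) were called lower, at -0.93 and -0.67. Of 15 glycolysis genes Pfkm, the muscle phosphofructokinase, and Eno1 were called higher, at 1.36 and 0.73, a share below the 16% of all genes. Of 31 genes of mitochondrial DNA expression Supv3l1 and Fastkd1 were called lower, at -0.64 and -0.89. Of the 6 tested subunits and linked genes that are not members 0 were called, with a median of -0.78.

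Over the 3 routes, vancomycin had 3 mitochondrial members called lower, mt-Nd4l, mt-Atp8 and mt-Nd6, at -0.68, -0.68 and -0.58, and 8 nuclear members called. All genes called were 7.4% lower and 18.6% higher. Cox7a1, Ndufa6, Cox7b, Ndufa1, Ndufb4 and Uqcrc1 were lower, from -1.22 for Cox7a1 to -0.48 for Uqcrc1, and Cox8b and Ndufa4l2 were higher, at 0.57 and 0.50. The mitochondrial count was 0 without PBS-IP replicate 3, and 1 without any 1 of PBS-IP replicate 1, PBS-IV replicate 4, Vancomycin-IV replicate 2 and Vancomycin-PO replicate 5. The nuclear count was 3 without Vancomycin-IP replicate 2 and 26 without PBS-IV replicate 4, and it moved by over 1.5 times for most single libraries left out, so it depends on which libraries are used.

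The mix had 1 member called over the 3 routes, against 7.96% of all genes. Sdha rose by 0.39 ± 0.12 (SE, limma adjusted p = 0.034), with group means of 346.5, 342.2 and 415.7 TPM by IP, IV and PO against 271.6, 245.3 and 334.4 in PBS. Ampicillin and metronidazole had 0 members called over the 3 routes, against 7.88% and 0.398% of all genes. Of the 96 members, 6 had an unadjusted p under 0.05 for ampicillin and 4 for metronidazole, against 24.1% and 9.48% of all genes. With muscle and goblet scores as covariates, mitochondrial genes called lower were 11 of 13 for ampicillin, 9 for the mix, 12 for vancomycin and 2 for metronidazole. Calls on the mitochondrial side were thus not confined to neomycin under that setting. The share of all genes called in that fit is not given here, and the shares above belong to the main fit. The call of Sdha was lost without the 12 appended libraries, without any 1 of Mix-IV replicates 5 and 6, PBS-IP replicate 3, PBS-IV replicate 2 and PBS-PO replicate 6, and without the 2 PBS libraries of high mitochondrial share, where 2 other nuclear members were called lower.

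Among members with a paired isoform, Cox7a1 varied most within groups of all nuclear members, with an SD of 1.04 on the log2 scale and a range of 4.13 to 97.05 TPM, and its r with the smooth muscle score within groups was -0.721, beside -0.73 for its partner Cox7a2. Cox6b2, Cox8b and Ndufa4l2 had r of 0.705, 0.631 and 0.745, and their partners Cox6b1, Cox8a and Ndufa4 had -0.76, -0.794 and 0.001. Cox7a1 made up a median of 14.9% of the sum with Cox7a2, from 10.3% in Vancomycin-IP to 21.3% in PBS-IP by group mean.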

How the data were processed

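The values are the authors' deposited TPM, with 1 column per library, and each library sums to the same total. Per the submitters' processing notes, Trim Galore 0.6.2, cutadapt 3.5, Salmon (version not given in the sources used here) and the genome GRCm39 were used. Per the labels' protocols, RNA was selected for poly(A) and read from 1 end. Whether strand was used is not given in the sources used here. Scaling to a fixed total makes abundant mitochondrial transcripts lower the TPM of other genes.

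From the deposited TPM, log2(TPM + 1) was computed and 17083 of 20457 genes with a TPM of 1 or more in at least 4 libraries were tested. A fold change on this scale understates the change of low genes. limma 3.58.1 (R 4.3.3, trend and robust) fitted the 18 groups of 97 libraries, with Benjamini-Hochberg adjustment within each comparison and a threshold of 0.05 on the adjusted p. Comparisons covered 15 antibiotic groups with PBS of their route, 5 treatments averaged over 3 routes, and F tests over groups and over routes. The test was tried on simulated data. Members, gene lists and named genes were chosen with earlier results of these data known. All 13 mitochondrial members were named, with the called nuclear members of largest change, the levels at the ends of each complex and the tissue isoforms. Correlations over libraries are descriptions.

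The alternative settings used quantile normalization, TPM rescaled to the nuclear total, a pseudocount of 10, no filter, array weights, a replicate block, marker scores as covariates, a fit of only the groups compared, and leaving out single libraries. Added after the data were seen were a colonocyte covariate, neomycin against the other 4 treatments, nuclear copies added to their mitochondrial gene, 2 PBS libraries left out, and a fit without 12 libraries whose columns follow the sorted block of the table. No libraries held identical values.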

Additional observations from a re-analysis of the deposited data

Results flagged for a closer look

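Of 72 sets of libraries (4 measures in 18 groups), 10 held a library far from the rest by Dixon's test, which chance gives in about 1 in 20. PBS-IV replicate 4 stood apart on all 4 measures: a mitochondrial share of 25.68% (the next was 12.27%), a mitochondrial mean log2(TPM + 1) of 13.33, a nuclear mean of 5.954 and a difference of 7.376. The mitochondrial share was also far above its group in Metronidazole-PO replicate 2 (15.93%) and Mix-IV replicate 4 (22.94%). The nuclear mean was far below its group in Metronidazole-IP replicate 3 (6.259), Neomycin-IP replicate 5 (6.516), Neomycin-IV replicate 1 (6.525) and PBS-PO replicate 2 (6.639).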

How the results depend on the processing

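For neomycin over routes, 13 mitochondrial members were called; the count was 8 without the 12 appended libraries, 3 without the 2 PBS libraries of highest share and 7 against the other 4 treatments, and 7 to 13 with single libraries left out. Nuclear members called there were 1 with array weights and 2 with all 3 covariates. For Neomycin-IP, mitochondrial calls were 9 with array weights, 5 with muscle and goblet covariates and 8 with the colonocyte covariate added, and nuclear calls 1 with array weights.

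For Vancomycin-IP, 19 nuclear members were called. The fit without the appended libraries leaves a single library in this group, so no count is given for it. The count was 10 with no filter, 39 with quantile normalization, 35 with rescaling, 78 with array weights and 37 in the compared groups alone. It was 0 with either covariate set, and 0 to 47 with single libraries left out. Mitochondrial calls there were 1 with all 3 covariates. For vancomycin over routes, 8 nuclear calls became 5 with no filter, 25 with quantile normalization, 21 with rescaling and 73 with array weights. They became 1 with either covariate set, 33 without the 2 PBS libraries, and 3 to 26 with single libraries left out. The appended libraries were 3, 2 and 3 vancomycin libraries by IP, IV and PO, and otherwise only PBS. Without them a single Vancomycin-IP library is left, so no count over routes is given for that fit. The 3 mitochondrial calls became 0 with quantile normalization or without the 2 PBS libraries. They became 12 with muscle and goblet covariates and 13 with all 3, and 0 to 3 with single libraries left out. Ndufa1 turned from -0.49 to 0.0049 with all 3 covariates. Array weights gave 27 nuclear calls in Vancomycin-IV, and 40 members in the F test of vancomycin by route.

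Mitochondrial calls with muscle and goblet covariates, then with colonocytes added, were 11 and 11 for ampicillin, 2 and 5 for metronidazole and 9 and 6 for the mix over routes, and 2 with the first set for Ampicillin-IP; array weights gave 2 for metronidazole. Nuclear calls for ampicillin over routes were 1 with quantile normalization, 10 with array weights, 26 and 23 with the covariate sets and 1 without the 2 PBS libraries, and 0 to 1 with single libraries left out. For Ampicillin-IP they were 2 with array weights and 10 and 3 with the covariate sets. Array weights gave 43 in Ampicillin-PO and 12 in Mix-IP. For the mix over routes, 1 nuclear call became 2 with rescaling, 21 with array weights, 7 and 3 with the covariate sets, 0 without the appended libraries and 2 without the 2 PBS libraries, both lower and neither of them Sdha, and 0 to 2 with single libraries left out. The F test over 18 groups called 2 members with quantile normalization, 1 with rescaling, 96 with array weights, 1 with the replicate block, 13 and 23 with the covariate sets and 1 without the 2 PBS libraries. The share of all genes called under each setting in this section is not given here. The counts therefore cannot be read as changes particular to the members. The cause of the changes in count was not tested.

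Replicate numbers were not used as pairs in the main fit. Of 74 same-numbered pairs, 30 had a correlation over 0.1, and in 0 of 15 comparisons did every pair. Over all pairs r ran from -0.696 to 0.837, so this check cannot settle whether the numbers pair the samples. With the replicate block, 11 of 13 mitochondrial members were called for neomycin over routes. Depth is unknown, so counting error could not be given.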

Other observations

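Other genes called lower after neomycin over the 3 routes, singled out after their values were seen, included the circadian genes Ciart (log2 change -1.27, limma adjusted p = 0.000141), Dbp (-1.23, 0.00255), Nr1d2 (-0.58, 0.00228) and Per3 (-0.69, 0.0133). Gm13340, which matched mt-Co1 over 1545 bases at 97.6%, was called lower as well, at -1.10.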
